A study of Mus musculus with 4 samples.

Results

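Genes of the interferon response and of MHC class I antigen presentation were examined in cultured mouse cells treated with daidzein, a soy isoflavone, or with its solvent DMSO. The set holds 35 genes of the 55401 in the deposited table and was chosen by gene symbol. It consists of 4 interferon receptor chains, 5 Irf and Stat transcription factors, 20 interferon-stimulated genes and 6 genes of class I presentation, and all 35 symbols were found. The labels describe the cells as female germline stem cells (FGSCs) from the ovary of C57BL/6 mice, all grown in medium with serum and the growth factors LIF, GDNF, bFGF and EGF. There were 2 libraries from daidzein cultures and 2 from DMSO cultures, with 17192077 and 18537134 counted reads with daidzein and 16230400 and 17119625 with DMSO. The sources used here give neither the daidzein dose nor the length of treatment. No label states that the replicates were separate cultures. The p-values therefore describe the spread between these libraries alone, and that spread may be technical.

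Interferons are secreted proteins that warn cells of virus infection. Type I interferons bind a receptor made of Ifnar1 and Ifnar2, and interferon gamma binds one made of Ifngr1 and Ifngr2. Receptor-bound kinases then activate Stat proteins such as Stat2, which with Irf9 switch on antiviral genes through a promoter sequence called the interferon-stimulated response element. Many cells keep a low tonic level of these genes without infection. MHC class I molecules, which are also raised by interferon, carry peptides from inside the cell to its surface, where T cells read them. Each is a heavy chain, such as H2-K1 or H2-D1, paired with B2m and loaded through the Tap transporter.

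The label of the cells was set against marker genes first. Of 14 germ cell markers in the table, 7 had 0 reads in every library and 11 had at most 3 reads in all, among them Ddx4 with 2 reads in DMSO replicate 1, Dazl with 1 read in daidzein replicate 1, Nanos3 with 3 reads in all and Pou5f1 with 0. Their summed level was 4.27 and 4.78 CPM (counts scaled to the library size) with daidzein and 4.70 and 5.65 CPM with DMSO, nearly all of it Zbtb16. Of 11 mast cell markers, Cpa3 averaged 481 FPKM, Gata2 244 and Kit 72.5 over the 4 libraries, while Fcer1a, Tpsb2, Tpsab1 and Mcpt4 had 0 reads. FPKM are counts scaled by exonic length and library size, the scale used here to set genes beside each other. Of 9 macrophage and monocyte markers, Adgre1 averaged 39.0 FPKM, Fcgr1 5.69 and Cd68 2.61 FPKM, while Csf1r had at most 2 reads in a library and 3 had 0 reads. Of 8 markers of plasmacytoid and classical dendritic cells, Bst2, itself a member here, averaged 89.7 FPKM and Zbtb46 0.59 FPKM, Itgax had 7 reads in all, and 4 had 0 reads, Siglech among them. Of 10 T, NK and B cell markers, 7 had 0 reads, Cd3e among them, and Cd3d, Cd79a and Nkg7 had 8, 6 and 2 reads in all. Of 10 markers of stroma, epithelium and granulosa cells, Amh was the most abundant at 0.978 FPKM, and Krt18 and Krt8 had 6 and 7 reads in all. The label was thus not borne out by the germ cell markers, and the cells are called cultured cells here. In bulk RNA, fewer cells of a type and less RNA per cell cannot be told apart.

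The levels of the 35 genes ran from 0 reads to the top 0.506% of the 19575 genes with any read. Of the 35, 2 averaged at least 100 FPKM over the 4 libraries, 5 lay between 10 and 100, 10 between 1 and 10, and 18 below 1 FPKM. Of those 18, 5 had 0 reads in all libraries, 5 had 1 to 10 reads in the 4 libraries together and 8 had more. A level of at least 1 FPKM was reached by 17 of the 30 members with a read and by 10064 of the 19575 genes with a read (51.4%). The genes of class I presentation and the receptors were all above 1 FPKM, and 16 of the 20 interferon-stimulated genes were below it.

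**Figure D1:**
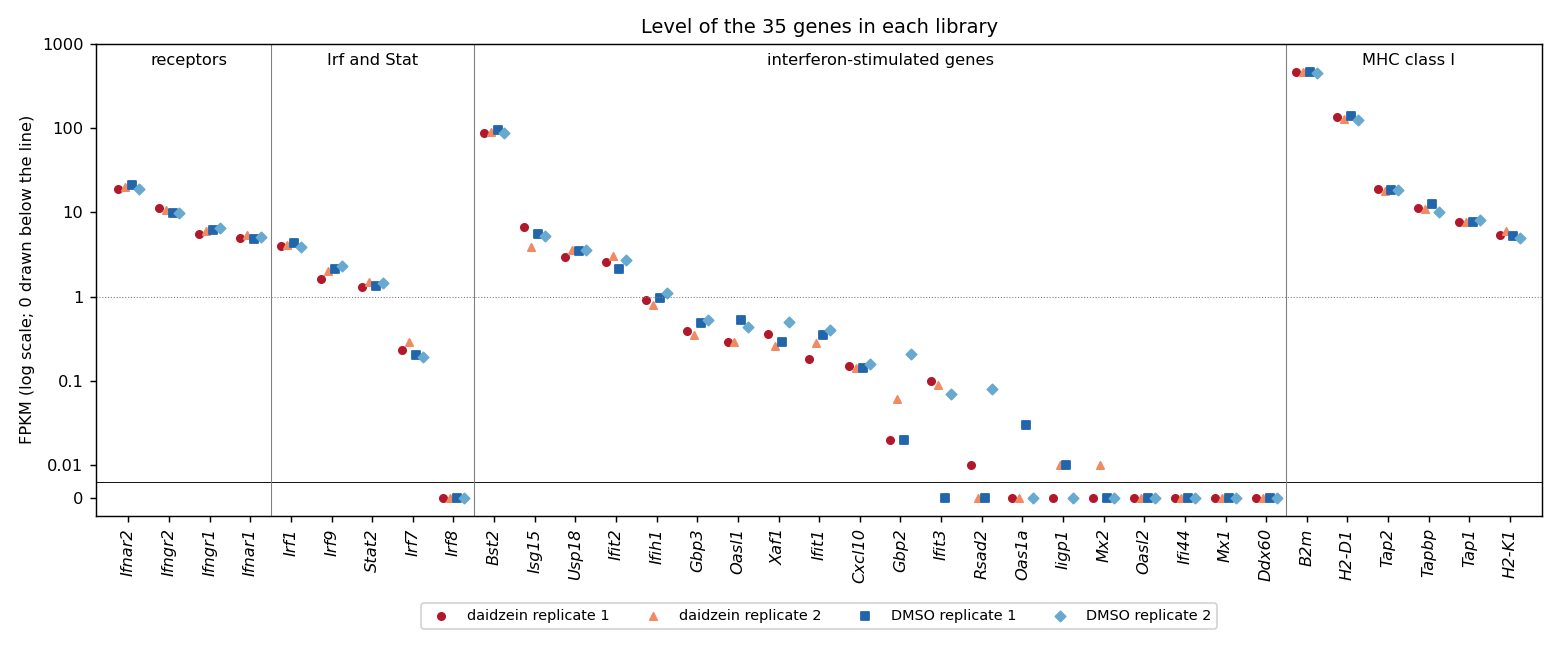
FPKM of each of the 35 genes (log axis, with 0 drawn below the line) in the daidzein and DMSO libraries, 1 point per library, grouped by role and sorted by mean. B2m, H2-D1 and Bst2 stand at the top, 16 of 20 interferon-stimulated genes average below 1 FPKM, and the 4 libraries lie close together for each abundant gene.

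All 4 receptor chains were expressed, and none of them differed between daidzein and DMSO by edgeR's quasi-likelihood test. Ifnar2 (ENSMUSG00000022971; GRCm38 chromosome 16, 91372783 to 91405589, plus strand), a chain of the type I interferon receptor, had 18.8 and 19.8 FPKM with daidzein and 21.1 and 19.1 FPKM with DMSO. The groups overlapped. Its partner Ifnar1 had 4.93 and 5.42 FPKM with daidzein and 4.88 and 5.16 FPKM with DMSO. Ifnar2 was thus 3.66 to 4.33 times as abundant as Ifnar1 per length, over the 4 libraries. Ifngr1, the ligand-binding chain of the interferon gamma receptor, had 5.54 and 5.93 FPKM with daidzein and 6.10 and 6.50 FPKM with DMSO. Both daidzein libraries lay below both DMSO libraries. Ifngr2, the signalling partner of Ifngr1, had 11.3 and 10.7 FPKM with daidzein and 9.73 and 9.88 FPKM with DMSO, and here both daidzein libraries lay above. The ratio of Ifngr2 to Ifngr1 was 2.03 and 1.80 with daidzein and 1.60 and 1.52 with DMSO. This separation follows from the opposite directions of these chains and was not tested. Over all tested genes, both daidzein libraries lay above both DMSO libraries for 14.7% and below them for 15%. For Ifnar2 to Ifnar1 the groups overlapped, at 3.81 and 3.66 with daidzein and 4.33 and 3.70 with DMSO. The fold of daidzein over DMSO was 1.12 for Ifngr2 (95% interval 0.988 to 1.26) and 0.910 for Ifngr1 (0.768 to 1.08). Ifngr2 had the smallest unadjusted p of the 35 genes, 0.0740, and a Benjamini-Hochberg adjusted p of 1.00 over all 11700 tested genes by edgeR. The genes of Ifnar2, Ifnar1 and Ifngr2 lie on mouse chromosome 16 within the span from 91372783 to 91565623, and Ifngr1 lies on chromosome 10.

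Of the transcription factors, 3 were expressed above 1 FPKM, Irf7 was low and Irf8 was not detected. Irf1, which acts downstream of interferon gamma, had 3.96 and 4.12 FPKM with daidzein and 4.37 and 3.92 FPKM with DMSO. Stat2, a factor of type I signalling, had 1.31 and 1.50 FPKM with daidzein and 1.34 and 1.44 FPKM with DMSO. The groups overlapped for both genes. Irf9, the DNA-binding subunit that joins Stat2, had 1.63 and 2.03 FPKM with daidzein and 2.14 and 2.29 FPKM with DMSO, with both daidzein libraries below. Its fold was 0.829 (95% interval 0.670 to 1.03), with an edgeR adjusted p of 1.00. Irf9 overlaps Rnf31 on the same strand, with 752 reads of Irf9 and 2117 of Rnf31 over the 4 libraries, so its count is uncertain. Irf7, itself interferon-induced and an amplifier of type I interferon production, had 15 and 20 reads with daidzein and 12 and 12 with DMSO. It overlaps Phrf1 on the opposite strand, which had 7672 reads in all, and the strand setting of the counting is not given, so reads of the pair cannot be told apart. Irf8, a factor of myeloid and dendritic cells, had 0 reads in all 4 libraries. At 69079236 reads in all, 0 reads allow up to 0.0434 CPM (3 counts, for counting error only).

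Among the interferon-stimulated genes 1 was abundant, 3 had a modest level and the other 16 averaged less than 1 FPKM, from Ifih1 at 0.94 FPKM to 4 genes at 0 reads. Bst2 (ENSMUSG00000046718; GRCm38 chromosome 8, 71534255 to 71537456, minus strand), which encodes tetherin, a membrane protein that holds budding virus at the cell surface, had 86.9 and 89.7 FPKM with daidzein and 95.5 and 86.9 FPKM with DMSO. It ranked in the top 3.61% of genes with a read. Bst2 is also used as a surface marker of plasmacytoid dendritic cells. Of the other 7 dendritic cell markers listed, 4 had 0 reads, Tcf4 had 2 and Itgax 7 reads in all, and Zbtb46 had 345. Isg15, a ubiquitin-like protein that is attached to other proteins, had 6.70 and 3.84 FPKM with daidzein and 5.52 and 5.23 FPKM with DMSO. The highest and the lowest value both belonged to daidzein libraries. The Isg15 transcript matches the annotated gene AC151275.1 at 95% identity or more over 63.8% of its length, so its count is uncertain. Usp18, the protease that removes Isg15 and dampens receptor signalling, had 2.92 and 3.62 FPKM with daidzein and 3.51 and 3.62 FPKM with DMSO.

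The Ifit genes, whose proteins bind foreign RNA, differed widely in level although they are neighbours on chromosome 19, between 34550694 and 34650009. Ifit2 had 175 and 220 reads with daidzein and 137 and 184 with DMSO, a mean of 2.63 FPKM over the 4 libraries. Ifit1 had 8 and 14 reads with daidzein and 15 and 18 with DMSO. Ifit3 had 3 and 3 reads with daidzein and 0 and 2 with DMSO. Of its transcript, 97.4% has a near-identical match in Ifit3b, which had 0 reads. How reads with several matches were counted is not given, so the Ifit3 count is uncertain. Per length, Ifit2 was 10.8 to 14.4 times Ifit1 in the daidzein libraries and 6.14 to 6.85 times Ifit1 in the DMSO libraries, on no more than 18 reads of Ifit1 in any library.

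The sensor and the antiviral enzymes among the 35 genes averaged less than 1 FPKM. Ifih1, the cytoplasmic RNA sensor MDA5, had 0.90 and 0.80 FPKM with daidzein and 0.97 and 1.09 FPKM with DMSO, from 121 to 153 reads. Both daidzein libraries lay below both DMSO libraries. Oasl1, an antiviral protein related to the oligoadenylate synthetases, had 13 and 14 reads with daidzein and 22 and 19 with DMSO. Its relative Oasl2 had 0 reads in every library. Oas1a, a synthetase that activates RNase L, had 0 reads with daidzein and 1 and 0 with DMSO. Its transcript is matched over 100% of its length by Oas1g, which had 0 reads. How reads with several matches were counted is not given, so the Oas1a count is uncertain. Rsad2, which encodes viperin, had 1 and 0 reads with daidzein and 0 and 6 with DMSO. Mx1, Ifi44 and Ddx60 had 0 reads in all libraries. Mx2 had 1 read, in daidzein replicate 2. Mx1, a GTPase that blocks influenza virus, is truncated in many inbred laboratory strains, C57BL/6 among them, and Mx2 is annotated as a polymorphic pseudogene.

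Guanylate-binding proteins and other effector genes were also low. Gbp3, a guanylate-binding protein of host defence, had 22 and 21 reads with daidzein and 26 and 29 with DMSO, so both daidzein libraries lay below. Gbp2, which lies near it on chromosome 3, had 1 and 3 reads with daidzein and 1 and 9 with DMSO. Iigp1, an immunity-related GTPase, had 0 and 1 reads with daidzein and 1 and 0 with DMSO. Cxcl10, a chemokine that attracts T cells, had 6 and 6 reads with daidzein and 5 and 6 with DMSO. Xaf1, a pro-apoptotic gene, had 29 and 23 reads with daidzein and 22 and 40 with DMSO. Of these 5 genes, only Xaf1 and Gbp3 had enough reads to be tested.

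The core of the interferon-stimulated response element stood in the promoters of abundant and of undetected genes. It was searched as a pair of GAAA separated by any 2 bases, on either strand and with overlapping copies counted, in RefSeq windows of 250 bases before to 50 bases after the gene start (GRCm38.p6), which matched 30 of the 35 genes. It was present for 13 of the 30 genes, which is 43.3%, and for 3.99% of the 27025 genes with a window. Among the interferon-stimulated genes 11 of 16 had it, against 1 of 5 class I genes (B2m), 1 of 5 factors (Stat2) and 0 of 4 receptors. Of the 13 genes with the core, 4 averaged at least 1 FPKM and 9 less, and of the 17 without it, 11 averaged at least 1 FPKM and 6 less. The median was 0.303 FPKM with the core and 4.09 FPKM without it. Of the 13 genes with the core, 11 were interferon-stimulated, so this difference cannot be told apart from that between roles. Among the interferon-stimulated genes without the core, Ifi44 and Oasl2 had 0 reads, and Xaf1, Oasl1 and Ifit2 averaged 0.3525, 0.3825 and 2.63 FPKM. The following stretches lie before the gene start and are shown because the same core, in capitals, stands in genes at 461 FPKM, in B2m, and at 0 reads, in Ddx60. They run 5′ to 3′ on the strand of the gene, and copies of the core on the other strand read as its reverse complement.
B2m (chr2:122147523-122147582, plus strand): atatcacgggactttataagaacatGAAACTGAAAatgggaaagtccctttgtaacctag
Bst2 (chr8:71537562-71537627, minus strand): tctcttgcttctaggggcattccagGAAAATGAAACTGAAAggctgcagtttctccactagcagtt
Isg15 (chr4:156200850-156200921, minus strand): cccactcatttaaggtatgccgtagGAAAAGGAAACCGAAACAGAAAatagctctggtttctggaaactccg
Ifit1 (chr19:34640760-34640838, plus strand): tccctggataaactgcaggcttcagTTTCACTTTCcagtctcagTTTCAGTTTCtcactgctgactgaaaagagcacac
Rsad2 (chr12:26456538-26456597, minus strand): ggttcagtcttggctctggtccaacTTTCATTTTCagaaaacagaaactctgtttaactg
Ifit3 (chr19:34583348-34583441, plus strand): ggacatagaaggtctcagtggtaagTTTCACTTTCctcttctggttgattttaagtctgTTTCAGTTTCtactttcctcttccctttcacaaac
Oas1a (chr5:120907526-120907570, minus strand): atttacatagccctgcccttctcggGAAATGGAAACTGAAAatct
Ddx60 (chr8:61928009-61928086, plus strand): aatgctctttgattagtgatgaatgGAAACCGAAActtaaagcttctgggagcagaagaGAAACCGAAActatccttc
In Isg15, 3 overlapping copies of the core begin 78 bases before the start, and Bst2 and Oas1a each have 2 overlapping copies. The overlapping arrays of Bst2 and Oas1a belong to genes at 89.7 and 0.0075 FPKM. The levels of Oas1a and Ifit3 are uncertain, however, because each has a near-identical gene. Ddx60, Ifit1 and Ifit3 each have 2 separate copies. A match describes the letters of the window only.

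**Figure D2:**
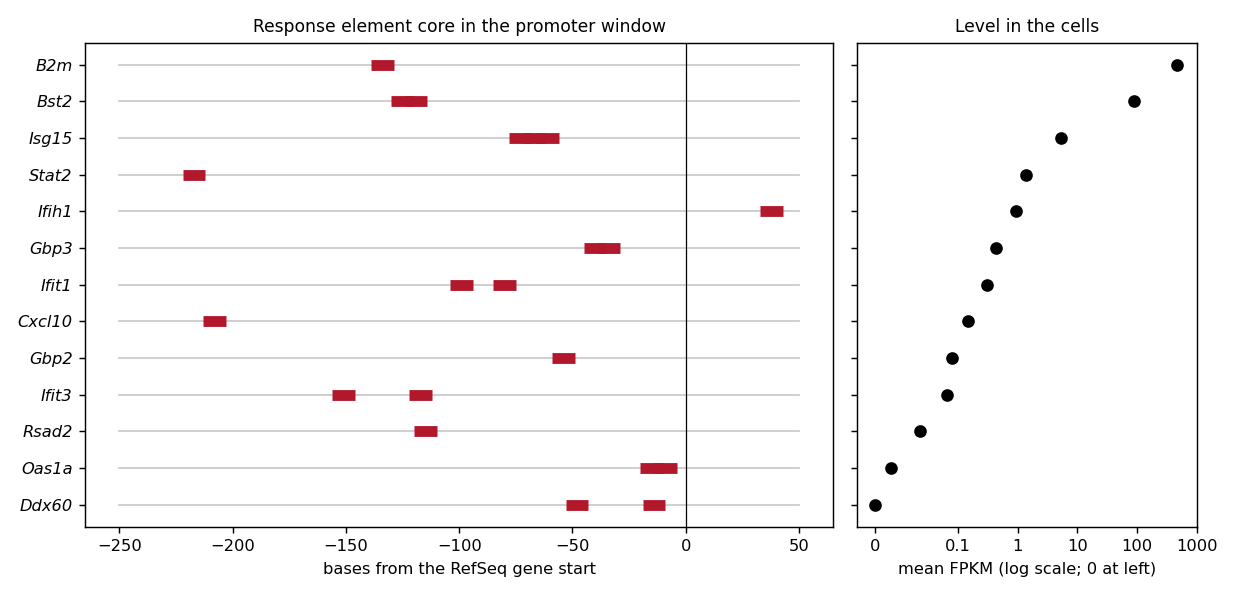
Left, position of each copy of the response element core (red) in the window from 250 bases before to 50 bases after the RefSeq start for the 13 genes that have it, in bases from the start. Right, mean FPKM of the same gene over the 4 libraries (log axis, 0 at the left edge). Genes with the core run from B2m at 461 FPKM to Ddx60 at 0 reads.

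Class I presentation was the most abundant group, with 927 and 897 CPM summed over its 6 genes with daidzein and 934 and 871 CPM with DMSO. B2m (ENSMUSG00000060802; GRCm38 chromosome 2, 122147686 to 122153083, plus strand), the light chain common to all class I molecules, had 469.6 and 466 FPKM with daidzein and 459 and 449 FPKM with DMSO. It ranked 99 of 19575 genes with a read. Both daidzein libraries lay above both DMSO libraries, with a fold of 1.03 (95% interval 0.955 to 1.11). H2-D1 (ENSMUSG00000073411; GRCm38 chromosome 17, 35262730 to 35267499, plus strand), a classical heavy chain, had 135 and 129.6 FPKM with daidzein and 140.4 and 125 FPKM with DMSO. H2-K1 (ENSMUSG00000061232; GRCm38 chromosome 17, 33996017 to 34000347, minus strand), the other classical heavy chain, had only 5.39 and 5.93 FPKM with daidzein and 5.24 and 4.99 FPKM with DMSO. B2m was 3.48 and 3.60 times as abundant as H2-D1 with daidzein and 3.27 and 3.58 times with DMSO. H2-D1 was 21.9 to 25.0 times H2-K1 in the daidzein libraries and 25.1 to 26.8 times in the DMSO libraries. Heavy chain genes resemble each other, and how reads that match several of them were counted is not given. At 95% identity or more, H2-D1 shared 13.3% of its transcript with H2-Q7 and H2-K1 had no match with another gene, so the ratio is a measured one whose dependence on read assignment was not tested.

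Peptide supply genes were at intermediate levels. Tap2 and Tap1, the chains of the peptide transporter, averaged 18.5 ± 0.771 and 7.61 ± 0.0212 FPKM with daidzein and 18.5 ± 0.0990 and 7.94 ± 0.325 FPKM with DMSO (SD, n = 2 each). Tap1 had 7.59 and 7.62 FPKM in the daidzein libraries, both below the 7.71 and 8.17 FPKM of the DMSO libraries. Tap1 overlaps Psmb9 on the opposite strand, at 2940 and 2503 reads in all, so some of its reads may belong to Psmb9. Tapbp, the chaperone tapasin that bridges the transporter and the heavy chain, had 11.3 and 11.0 FPKM with daidzein and 12.7 and 10.0 FPKM with DMSO. The DMSO libraries enclosed the daidzein libraries. Tapbp overlaps Zbtb22 on the same strand, at 2813 and 2496 reads in all. Strand cannot separate the reads of this pair, so the Tapbp count is uncertain too.

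No member passed a test of daidzein against DMSO. Of the 35, 23 passed the filter on low counts and were tested, and 0 passed an adjusted p of 0.05 by edgeR, where 2 of all 11700 tested genes did (0.0171%). At an unadjusted p under 0.05 the count was also 0 of 23, against 2.91% of all tested genes, 1.29% of them higher with daidzein. With the replicate number as a block 0 of 23 passed the adjusted threshold, against 0.231% of all tested genes. By DESeq2 0 of 23 passed, both adjusted (0.00855% of all tested genes) and unadjusted (0.692%). The log2 differences of the 23 ran from -0.70 for Oasl1 to 0.44 for Irf7, with a median of -0.04 against -0.0027 over all tested genes. Both daidzein libraries lay above both DMSO libraries for 4 of the 23 (14.7% of all tested genes) and below them for 7 (15% of all tested genes). Summed over all 35 genes, the level was 1226 and 1205 CPM with daidzein and 1249 and 1177 CPM with DMSO, so the groups overlapped. Most of this sum was B2m, at a mean of 402 CPM with daidzein and 390 with DMSO, and H2-D1, at 341 and 343. It therefore says little about the less abundant genes. The 4 genes above were Ifngr2, Irf7, B2m and H2-K1. The 7 below were Ifngr1, Irf9, Ifit1, Oasl1, Ifih1, Gbp3 and Tap1.

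**Figure D3:**
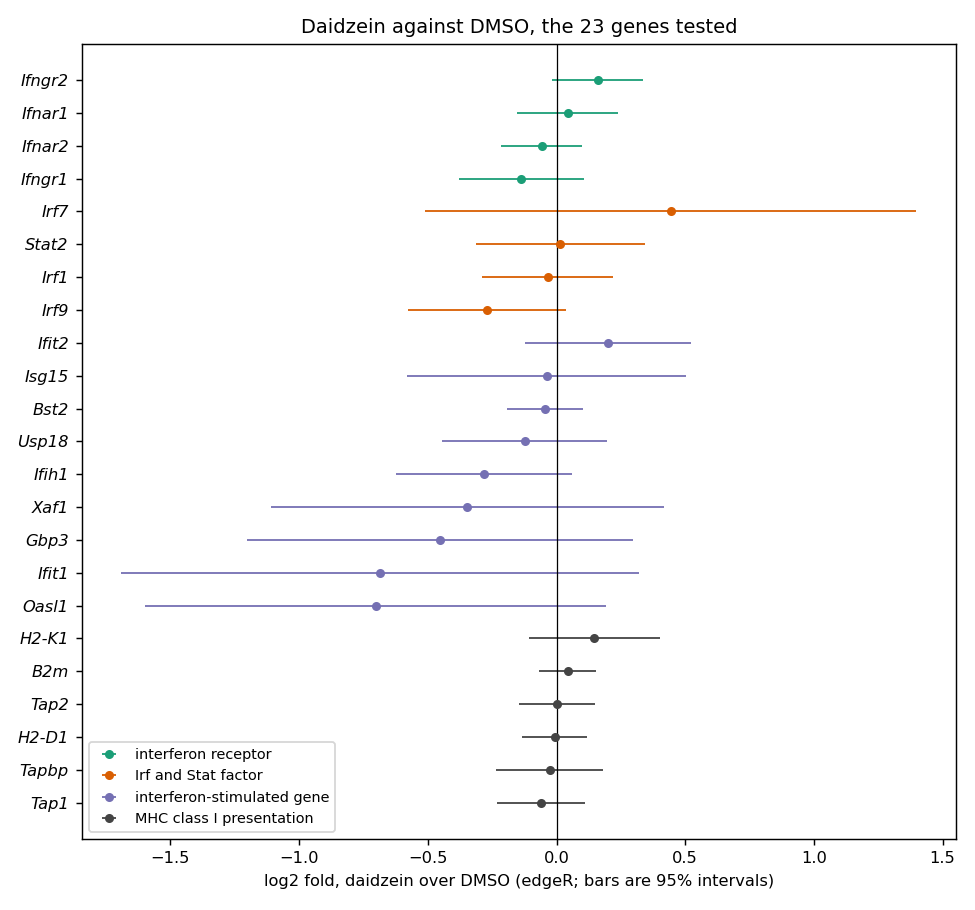
Log2 fold of daidzein over DMSO with its 95% interval by edgeR for the 23 genes with enough reads to test, grouped by role and sorted within each role. All intervals include 0, and they are narrowest for B2m and widest for Ifit1 and Irf7, which had at most 20 reads in a library.

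The intervals show what sizes of change these libraries could still hold. For class I genes and Bst2 they were narrower than for Isg15 and genes of few reads. The fold of daidzein over DMSO was 0.995 for H2-D1 (95% interval 0.911 to 1.09), 1.11 for H2-K1 (0.928 to 1.32), 1.00 for Tap2 (0.904 to 1.11) and 0.968 for Bst2 (0.874 to 1.07). The interval ran from 0.669 to 1.42 around a fold of 0.974 for Isg15, from 0.330 to 1.14 around 0.614 for Oasl1, from 0.310 to 1.25 around 0.621 for Ifit1 and from 0.701 to 2.64 around 1.36 for Irf7. The 9 tested interferon-stimulated genes had a median log2 difference of -0.28. Of these, 8 had a log2 difference below 0 and 1, Ifit2, had one of 0.20, and 0 passed the test by edgeR, also at an unadjusted p under 0.05. Over all tested genes, 6003 of 11700 had a log2 difference below 0. The median of the 9 depended on single libraries, at -0.40 with daidzein replicate 1 left out, -0.18 with daidzein replicate 2, -0.36 with DMSO replicate 1 and -0.12 with DMSO replicate 2, and 6 or 7 of the 9 were then below 0. For the 6 class I genes the median was -0.0024, for the 4 receptors -0.0067 and for the 4 factors tested -0.0098. The other 12 genes, with at most 23 reads over the 4 libraries, were not tested, and without the filter on low counts 0 members passed either.

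The wider pathway was listed in the same way, with 142 further genes in 6 lists, of which 85 were tested and 0 rose or fell by edgeR, none of them even at an unadjusted p under 0.05, or by DESeq2, adjusted or not. The shares over all tested genes were 0.0171% adjusted and 2.91% unadjusted by edgeR and 0.00855% adjusted and 0.692% unadjusted by DESeq2, so counts of 0 in 85 are near the background. All 21 interferon genes of the table's type I, II and III families that were listed, Ifnb1 and Ifng among them, had 0 reads in all 4 libraries. The signalling machinery was present. Of 16 kinases, regulators and relatives, 15 were tested, 9 with a log2 difference above 0 and 6 below. Jak1, a kinase of all interferon receptors, had 20.6 and 21.3 FPKM with daidzein and 20.1 and 20.8 FPKM with DMSO. Ptpn6, the blood cell phosphatase SHP-1 that restrains cytokine signals, averaged 105 FPKM and was the most abundant of the list, followed by Ptpn2 at 23.1, Jak1 at 20.7 and Ptpn11 at 19.9 FPKM. Socs3, a feedback inhibitor of cytokine receptors, had 4.61 and 4.80 FPKM with daidzein and 5.86 and 4.95 FPKM with DMSO, a fold of 0.871 (95% interval 0.721 to 1.05) with an edgeR adjusted p of 1.00.

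Among 20 sensors and adaptors of foreign nucleic acid, 14 were tested, 8 above 0 and 6 below. The adaptors were clearly expressed. Myd88, the adaptor of most Toll-like receptors, averaged 19.2 FPKM, Irf3, the factor that first induces interferon, 18.3, Mavs, the adaptor of the RNA sensors, 17.8 and Traf3 14.7 FPKM. Cgas, the sensor of cytoplasmic DNA, averaged 9.76 FPKM. Toll-like receptors of nucleic acid were near 0, with 0 reads of Tlr3 and Tlr8 and at most 4 reads of Tlr7 and Tlr9 in a library. Cgas and these receptors were named after their values were seen. Ddx58, the RNA sensor RIG-I, had a fold of 1.14 (95% interval 0.934 to 1.39), and Irf5, a factor of Toll-like receptor signalling, of 0.834 (0.657 to 1.06), each with an edgeR adjusted p of 1.00.

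Of 58 other interferon-stimulated genes, 35 were tested, 13 above 0 and 22 below, with a median log2 difference of -0.03. Their levels ran from 0 reads to 575 FPKM. Enough reads for a test were found for 35 of these 58 genes, against 9 of the 20 interferon-stimulated members. At most 3 reads in all were found for 12 of the 58 and for 7 of the 20. Ifitm1, a membrane protein that hinders virus entry, had 587 and 562 FPKM with daidzein and 591 and 560.2 FPKM with DMSO, the highest of the list and in the top 0.414% of genes with a read. Its relative Ifitm2 averaged 191 FPKM. Ifitm3, which is also a marker used for germline cells, had 1 and 0 reads with daidzein and 4 and 0 with DMSO. Psme1 and Psme2, subunits of the proteasome activator induced by interferon gamma, averaged 58.5 and 25.7 FPKM. The smallest p-values belonged to Shisa5, with a fold of 1.09 (95% interval 0.982 to 1.21), and Parp9, with 1.19 (0.949 to 1.50), each with an edgeR adjusted p of 1.00. At the other end, 7 of the 58 had 0 reads in all libraries.

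Other genes of class I presentation all had reads, while 5 of 8 class II genes had too few reads for a test. Among the class I genes, H2-Q10 had only 5 reads, all in DMSO replicate 2, and was not tested. Of 19 class I genes 18 were tested, 6 above 0 and 12 below. Calr and Pdia3, chaperones of the peptide-loading complex, averaged 453 and 262 FPKM and Canx 168 FPKM, and these serve other proteins too. Psmb10 and Psmb8, catalytic subunits of the immunoproteasome that cuts peptides for class I, averaged 102 and 83.9 FPKM, Psmb8 being named after its values were seen. H2-Q6, also so named, had 41.0 and 39.0 FPKM with daidzein and 40.5 and 39.6 FPKM with DMSO. Near-identical transcripts were searched for the members only, so the dependence of the H2-Q6 count on read assignment was not tested. H2-M3, a non-classical heavy chain, had 11.6 and 11.3 FPKM with daidzein and 10.7 and 9.51 FPKM with DMSO, with both daidzein libraries above and a fold of 1.14 (95% interval 0.949 to 1.36). Cd1d1, which presents lipids, had 1.65 and 1.87 FPKM with daidzein and 2.18 and 2.39 FPKM with DMSO, with both daidzein libraries below and a fold of 0.771 (0.584 to 1.02). Both had an edgeR adjusted p of 1.00. Of 8 class II genes, H2-Aa, H2-Ab1 and H2-DMb1 had 0 reads, H2-Eb1 had 1 read in DMSO replicate 2, and Ciita, the master regulator of class II, had 9 and 9 reads with daidzein and 5 and 6 with DMSO. Cd74, the invariant chain, had 1.28 and 1.03 FPKM with daidzein and 1.54 and 1.67 FPKM with DMSO, a fold of 0.717 (0.473 to 1.09). H2-DMa and H2-Oa, which act in class II peptide loading, averaged 2.02 and 0.94 FPKM.

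**Figure D4:**
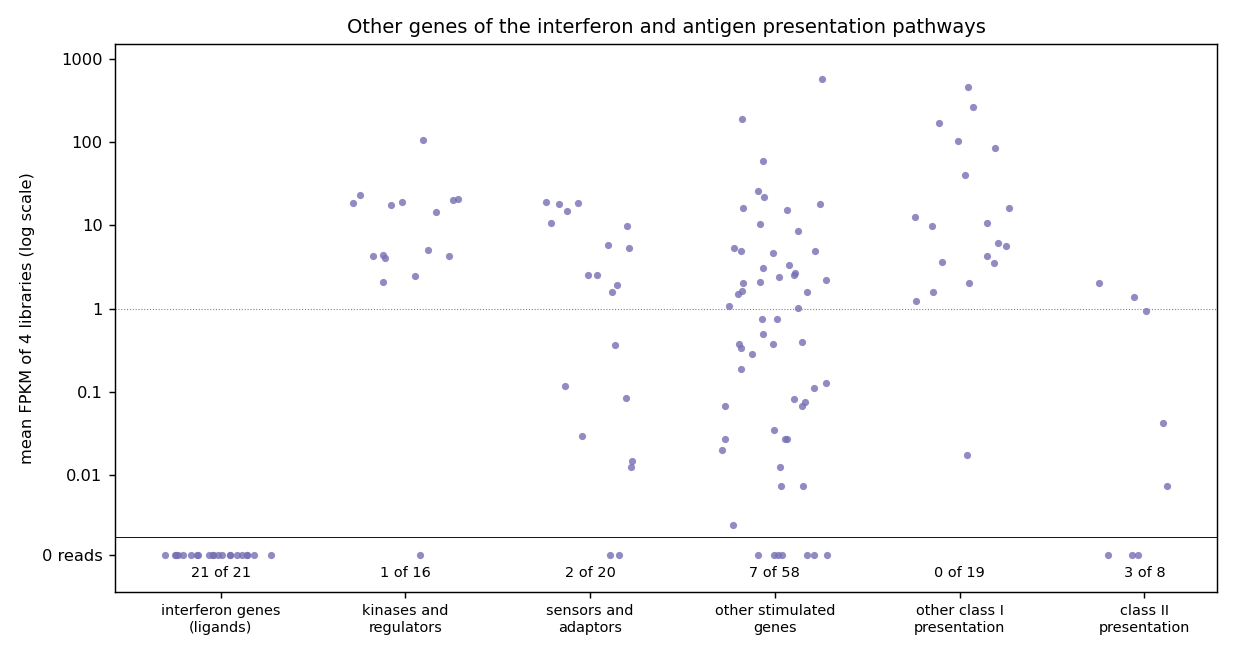
Mean FPKM over the 4 libraries (log axis) of the other genes listed for the pathway, 1 point per gene, with genes at 0 reads below the line and their number of all listed written under them. All 21 interferon genes are at 0 reads, whereas 15 of 16 kinases and regulators and all 19 class I genes have reads.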

How the data were processed

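RNA sequencing of 4 libraries was used, grouped by the titles. The submitters' processing notes list the build mm9 and the tools DESeq2, HTSeq 0.6.1 and HISAT2 2.0.1 without their roles. The table's coordinates are GRCm38, however, since 34 of the 35 members have the same start in GENCODE M21. How counting treated strand and reads with several matches is not given in the sources used here. Deposited read counts per gene are whole numbers, not normalized. The FPKM were made by the authors, and 100% of the 65326 values with a read lay within 0.01 of the count over exonic length and library total.

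The test was the quasi-likelihood F test of edgeR 4.0.16 on the counts (R 4.3.3, TMM, default filterByExpr), at a Benjamini-Hochberg adjusted p of 0.05 over 11700 genes. Folds with their 95% intervals come from that fit. CPM are scaled by TMM, FPKM are as deposited, and levels are means of 4 libraries unless given per library. Alternatives were DESeq2 1.42.0, no filter, a filter of 5 CPM in 2 libraries, robust estimation, the replicate number as a block, each library left out and limma 3.58.1 trend on log2(FPKM + 1) or log2(FPKM + 0.1). Steps were tested on simulated data. For the members, near-identical transcripts were searched with blastn 2.17.0 in GENCODE M21, and overlapping genes by the table's coordinates. For genes at 0 reads the limit is 3 counts.

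The members and lists were chosen with earlier results of these data known. Named are all 35 members, of each pathway list the up to 4 most abundant genes by FPKM and the up to 2 with the smallest p, of each marker list the up to 3 most abundant and Ddx4, Pou5f1, Dazl, Csf1r, Adgre1, Siglech and Cd3e. Any other gene was picked once its values were known.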

Additional observations from a re-analysis of the deposited data

How the results depend on the processing

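Among the 35 members 0 passed the test in all 11 alternatives, and so did 0 of the pathway lists. Over all tested genes the count, 2, was 1 by DESeq2, 11 without a filter, 1 with the stricter filter, 0 by limma trend with either pseudocount and 27 under the replicate block. Leaving out 1 library gave 4 to 17, on the assumption that the single library left in a group varies as much as the other group. Deviations of same-numbered libraries from their group means correlated only weakly (0.11 across genes). With 2 libraries per group, the second pair mirrors the first. No label ties same-numbered libraries, and they were treated as unpaired. With the replicate block the members still had 0 calls and a median log2 difference of -0.04. The median, -0.04, ran from -0.090 without DMSO replicate 2 to 0.0098 without DMSO replicate 1, so its sign rests on 1 library. Of 247 recomputed values of the 23 tested members, 231 kept their sign and 0 passed the threshold, and 12 members kept their sign in all alternatives that tested them. The median of the 9 tested interferon-stimulated genes, -0.28, was -0.10 by limma on log2(FPKM + 1), which compresses low values by construction, and -0.40 without daidzein replicate 1. The 12 members not tested, with at most 23 reads over the 4 libraries, are limited by depth. For Oas1a and Ifit3, near-identical genes add a further limit.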
